A study of Homo sapiens with 2 samples.

Results

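The semaphorins, plexins, neuropilins, ephrins and Eph receptors are cell-surface and secreted guidance proteins. Members were taken as every row whose gene symbol begins with SEMA and a digit, PLXN, EPHA, EPHB, EFNA or EFNB, or is NRP1 or NRP2. This gave 28 of the 11976 genes listed in both libraries, of which 15 encode ligands (11 semaphorins and 4 ephrins) and 13 encode receptors (7 plexins, 2 neuropilins and 4 Eph receptors). The GENCODE 29 annotation holds 53 protein-coding genes under the same symbols, and the other 25, among them every ephrin-B gene, were not analysed here. The libraries came from Huh7, an established human hepatocellular carcinoma line, transfected with an shRNA against the ubiquitin hydrolase USP22 (1 library) or with a control shRNA (1 library). Total RNA went into messenger RNA libraries, and each deposited table gives 1 value per gene, read here as FPKM (fragments scaled to transcript length and library size), an assumption since no unit is named. With 1 library per group no test, standard error or replicate check is possible, so "higher" and "lower" describe these 2 libraries only.

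Semaphorins carry a sema domain. Those of class 3 are secreted and act through neuropilins joined to plexins, while classes 4, 6 and 7 are held at the membrane and bind plexins directly. Plexins signal through a cytoplasmic GTPase-activating domain that acts on small GTPases of the RAS and RAP families, and neuropilins, which also bind VEGF family growth factors, have only a short cytoplasmic tail. Ephrin-A ligands are tethered to the membrane by a lipid anchor and bind mainly EphA receptor tyrosine kinases, and signals can run into the ligand-bearing cell as well as the receptor-bearing one. In epithelial and tumour cells these systems are known for control of adhesion, repulsion and migration.

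USP22 itself was at 7.67 FPKM in the USP22 shRNA library, against 58.1 FPKM in the control shRNA library. Differences are given as a log2 ratio of USP22 shRNA over control shRNA, each value with 1 FPKM added, and for USP22 it was -2.77. All 14 hepatocyte and hepatoma markers were listed, with a summed level of 2435 FPKM under USP22 shRNA and 3444 FPKM under control shRNA. The single markers went both ways. AFP (347 and 270 FPKM), APOB, FGB and KRT18 had larger values under USP22 shRNA. The rest of the list, among them APOA1 (381 and 781 FPKM), had smaller ones. With the GC trend described below removed, AFP (-0.92) and FGB (-0.17) had negative log2 ratios. APOA2 (0.27) and KRT8 (0.0096) then had positive ones. None of the 8 endothelial markers was among the genes analysed here, and the 3 of 8 neuronal markers that were listed summed to 2.84 and 3.55 FPKM in the USP22 shRNA and control libraries. Of the 8 blood cell markers 3 were listed, at a sum of 94.8 FPKM under USP22 shRNA and 392 FPKM under control shRNA, nearly all of it from LYZ. Of the 8 stromal markers 5 were listed, at a sum of 115 FPKM under USP22 shRNA and 14.7 FPKM under control shRNA, most of it from COL1A1, at 104 and 11.1 FPKM. LUM was at 8.95 FPKM under USP22 shRNA and 1.37 FPKM under control shRNA, COL3A1 at 0.756 and 0.508 FPKM, PDGFRB at 1.31 and 1.68 FPKM, and ACTA2 at 0 in both. The part of these markers in the results was not tested. In bulk RNA, fewer cells with a transcript and less of it per cell cannot be told apart.

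The size rule called a gene higher at a log2 ratio of 1 or more and lower at -1 or less, which is 2-fold on this scale. It was applied to the 10195 genes whose mean over both libraries reached 1 FPKM. Of the members, 25 passed that filter, and 4 were higher and 6 lower. Across all genes 24.1% were higher and 12.2% lower, so the members' shares of 16.0% higher and 24.0% lower lean to the lower side relative to the background. The median log2 ratio was -0.59 over the 25 members and 0.10 over all genes. The log2 ratio also moved with GC content over the whole table, with a Spearman correlation of -0.70 across 10134 genes, and the members are GC-rich, at a median of 60.9% of the transcript against 49.3% for all genes. With that trend removed, 3 members were higher and 2 lower, beside 8.45% and 8.92% of all genes, and the member median was -0.06 against 0.0025 for all genes.

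**Figure D1:**
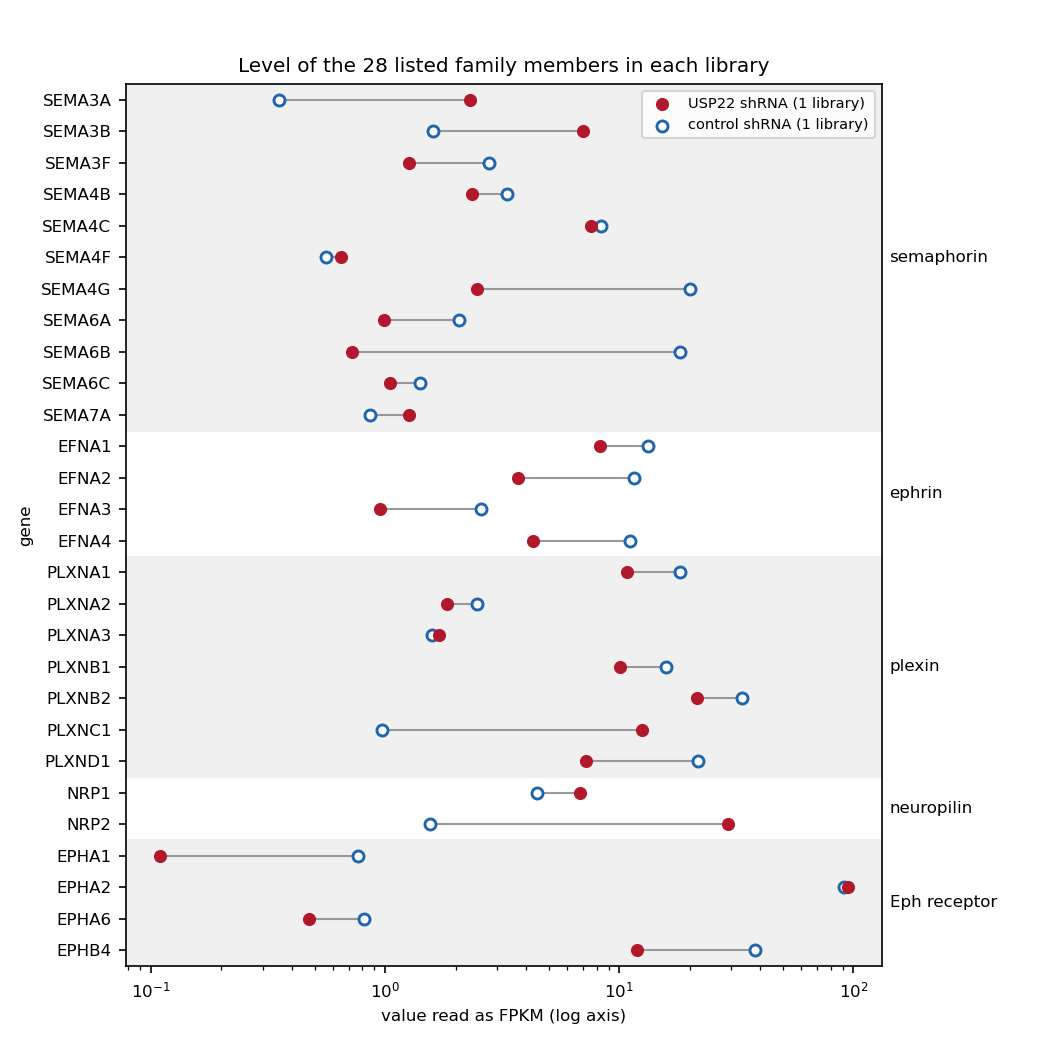
Value of each of the 28 members in the USP22 shRNA library (filled red) and the control shRNA library (open blue), read as FPKM on a log axis and grouped by family, with a grey line joining the 2 values of a gene. NRP2, PLXNC1 and SEMA3B lie to the right in the USP22 shRNA library, SEMA6B and SEMA4G far to the left, and EPHA2 lies farthest right in both, at 94.5 and 90.9 FPKM.

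Among the receptors, the largest difference was in NRP2, a neuropilin that binds class 3 semaphorins such as SEMA3F and the growth factor VEGFC. NRP2 (ENSG00000118257.16_3) was at 29.1 FPKM under USP22 shRNA and 1.55 FPKM under control shRNA. Its log2 ratio of 3.56 stood at rank 11 from the highest of 10195 genes, and with the GC trend removed it was 3.62. The related receptor NRP1, which binds SEMA3A and VEGFA, was at 6.83 FPKM under USP22 shRNA and 4.45 FPKM under control shRNA, a log2 ratio of 0.52, or -0.14 with the GC trend removed. NRP2 therefore made up 81.0% of the summed neuropilin FPKM under USP22 shRNA and 25.9% under control shRNA, which puts NRP2 above NRP1 in the first library and below it in the second. A share within a family does not depend on how the libraries were scaled to each other, but the GC trend was not removed from the shares. An antisense gene, not analysed here, overlaps exons of NRP2 on the opposite strand. Of the 10 members past 2-fold, 6 overlap some other annotated gene, beside 11 of all 25 members past the filter. The share over all genes was not taken. For NRP2, PLXNC1, SEMA4G and EPHB4 the other gene is on the opposite strand, and the use of strand is not stated. On the same strand lie a protein-coding gene for EFNA4 and only a microRNA gene for SEMA3B. The values of all 6 are uncertain to an extent that was not measured.

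PLXNC1, the plexin that binds SEMA7A, was the other receptor that was higher. PLXNC1 (ENSG00000136040.8_2) was at 12.5 FPKM under USP22 shRNA and 0.969 FPKM under control shRNA, a log2 ratio of 2.78 at rank 67 from the highest, or 2.45 with the GC trend removed. Its share of the summed plexin FPKM was 19.1% under USP22 shRNA and 1.03% under control shRNA. SEMA7A, its lipid-anchored ligand, was low in both libraries, at 1.26 FPKM under USP22 shRNA and 0.865 FPKM under control shRNA, a log2 ratio of 0.28. CEP83, a centrosomal gene on the opposite strand whose exons overlap those of PLXNC1, was at 1.20 FPKM under USP22 shRNA and 0.265 FPKM under control shRNA.

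The receptors that were lower were EPHB4 and PLXND1. EPHB4, the kinase that binds ephrin-B2, was at 11.9 FPKM under USP22 shRNA and 37.9 FPKM under control shRNA, a log2 ratio of -1.59. PLXND1, a plexin that binds SEMA3E and is best known from blood vessels, was at 7.19 FPKM under USP22 shRNA and 21.6 FPKM under control shRNA, a log2 ratio of -1.46. Both have GC-rich transcripts, at 62.6% for EPHB4 and 63.5% for PLXND1. Of the genes within 1 percentage point of these GC contents, 31.8% and 32.5% were at least 2-fold lower, and with the trend removed the log2 ratios were -0.94 for EPHB4 and -0.78 for PLXND1, inside 2-fold. SLC12A9, a membrane transporter gene whose exons overlap those of EPHB4 on the opposite strand, was at 3.27 FPKM under USP22 shRNA and 4.42 FPKM under control shRNA.

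The remaining plexins were inside 2-fold. PLXNB2, a receptor of SEMA4C, had the highest plexin level in both libraries, at 21.5 FPKM under USP22 shRNA and 33.6 FPKM under control shRNA, a log2 ratio of -0.62. PLXNB1, the receptor of SEMA4D, was at 10.1 FPKM under USP22 shRNA and 15.8 FPKM under control shRNA, a log2 ratio of -0.59. PLXNA1, which transmits class 3 and class 6 signals, was at 10.8 FPKM under USP22 shRNA and 18.1 FPKM under control shRNA, a log2 ratio of -0.70. These log2 ratios became 0.05, 0.05 and -0.07 with the GC trend removed, so the deposited differences were about those of other genes of like GC content. PLXNA2 was at 1.85 and 2.47 FPKM and PLXNA3 at 1.70 and 1.58 FPKM in the USP22 shRNA and control libraries.

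EPHA2, a receptor tyrosine kinase abundant in many carcinomas, was the most abundant member in both libraries. It was at 94.5 FPKM under USP22 shRNA and 90.9 FPKM under control shRNA, a log2 ratio of 0.06, or 0.65 with the GC trend removed. With EPHB4 lower, EPHA2 accounted for 88.3% of the summed Eph receptor FPKM under USP22 shRNA and 69.7% under control shRNA. EPHA1 and EPHA6 did not pass the filter. EPHA1 was at 0.110 FPKM under USP22 shRNA and 0.766 FPKM under control shRNA, and EPHA6 at 0.471 and 0.812 FPKM, and no ratio is read from either.

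Among the ligands, the class 3 semaphorins held both members that were higher. SEMA3B, a secreted semaphorin described as a candidate tumour suppressor in lung cancer, was at 6.98 FPKM under USP22 shRNA and 1.61 FPKM under control shRNA, a log2 ratio of 1.61. Its transcript is GC-rich, at 64.8%, and of the genes within 1 percentage point of that content 1.47% were at least 2-fold higher, and with the GC trend removed its log2 ratio was 2.33, at rank 45 from the highest of 10134 genes. SEMA3A, the class 3 semaphorin first known for collapsing axonal growth cones, was at 2.30 FPKM under USP22 shRNA and 0.351 FPKM under control shRNA, a log2 ratio of 1.29. At that control value SEMA3A could pass the filter only with a USP22 shRNA value near or past 2-fold higher on this scale. Its transcript is the most GC-poor of the 28, at 36.7%, where 72.5% of genes within 1 percentage point were at least 2-fold higher, and its ratio was -0.06 with the GC trend removed. SEMA3F, a ligand of NRP2, was at 1.27 FPKM under USP22 shRNA and 2.79 FPKM under control shRNA, a log2 ratio of -0.74. SEMA3F and SEMA3B lie near each other on chromosome 3 and their ratios had opposite signs.

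The transmembrane semaphorins held the lowest ratios of all members. SEMA6B, a class 6 semaphorin that binds plexins of the A group, was at 0.724 FPKM under USP22 shRNA and 18.2 FPKM under control shRNA, a log2 ratio of -3.47 at rank 5 from the lowest of 10195 genes, or -2.67 with the GC trend removed. SEMA4G, a class 4 semaphorin, was at 2.46 FPKM under USP22 shRNA and 20.0 FPKM under control shRNA, a log2 ratio of -2.60 at rank 38 from the lowest, or -2.06 with the GC trend removed. MRPL43, a mitochondrial ribosomal protein gene on the opposite strand, has exons that overlap those of SEMA4G and was at 8.49 FPKM under USP22 shRNA and 14.6 FPKM under control shRNA, a log2 ratio of -0.72. SEMA6B overlaps the exons of no other annotated gene. Of the genes within 1 percentage point of its GC content of 67.7%, 53.2% were at least 2-fold lower. Around SEMA4G, at 57.8%, the share was 23.3%. With the GC trend removed SEMA6B stood at rank 18 and SEMA4G at rank 84 from the lowest of 10134 genes.

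The other members of these classes were inside 2-fold. SEMA4C, a ligand of PLXNB2, was at 7.56 FPKM under USP22 shRNA and 8.34 FPKM under control shRNA, a log2 ratio of -0.13, and it had the highest semaphorin level under USP22 shRNA. SEMA4B was at 2.36 and 3.31 FPKM, SEMA6A at 0.987 and 2.06 FPKM, and SEMA6C at 1.05 and 1.42 FPKM in the USP22 shRNA and control libraries. Their log2 ratios were between -0.62 and -0.24. SEMA4F did not pass the filter, at 0.645 FPKM under USP22 shRNA and 0.558 FPKM under control shRNA.

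The make-up of the semaphorins differed between the libraries. SEMA4G (33.6%) and SEMA6B (30.5%) supplied most of the summed semaphorin FPKM under control shRNA, where under USP22 shRNA they supplied 8.93% and 2.62%. The sum itself was 27.6 FPKM under USP22 shRNA and 59.5 FPKM under control shRNA. The secreted class 3 semaphorins supplied 38.2% of the sum under USP22 shRNA and 7.98% under control shRNA. Within this class SEMA3B supplied 25.3% and 2.71% of the sum, SEMA3A 8.32% and 0.590%, and SEMA3F 4.59% and 4.68%. Class 6 semaphorins supplied 9.99% under USP22 shRNA and 36.4% under control shRNA, and class 4 semaphorins 47.2% and 54.2%.

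**Figure D2:**
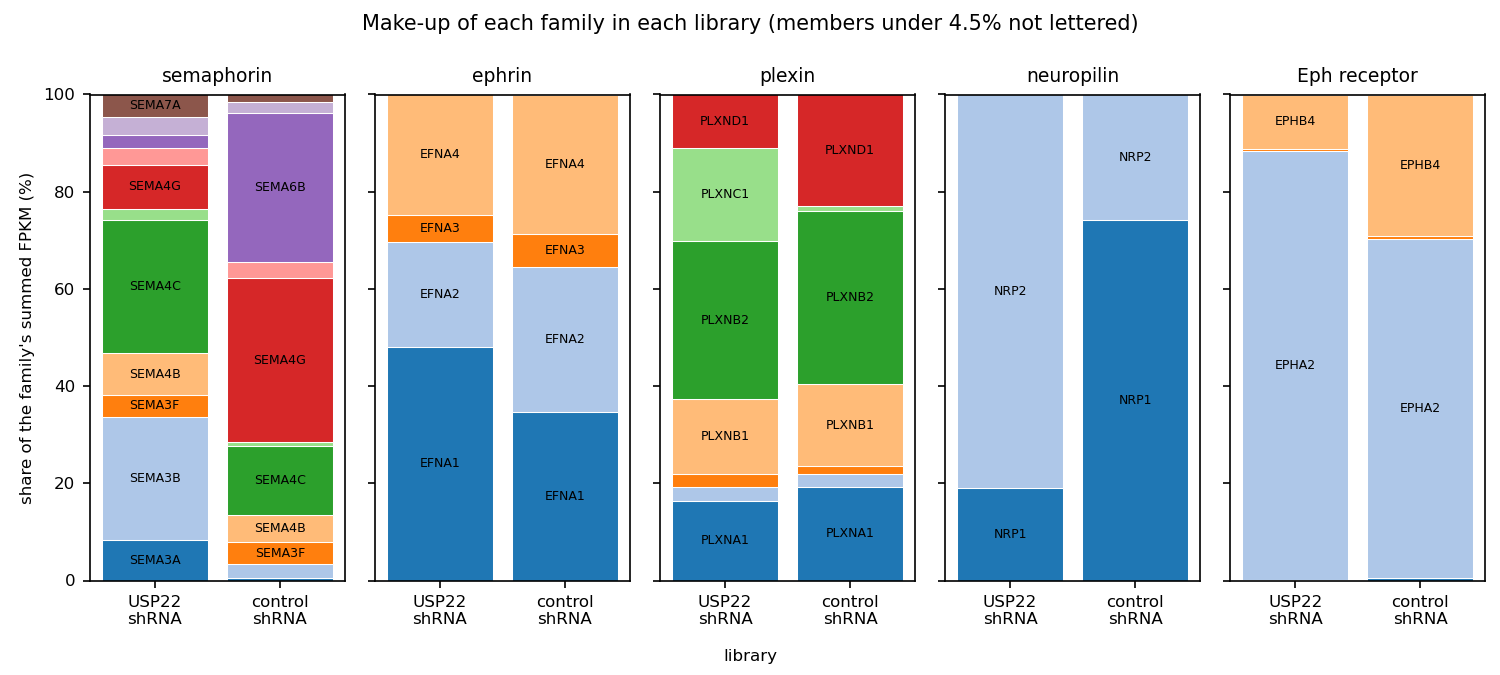
Share of each family's summed FPKM contributed by each member, in percent, with the USP22 shRNA library on the left and the control shRNA library on the right of each panel. NRP2 fills 81.0% and 25.9% of the neuropilin bars, PLXNC1 19.1% and 1.03% of the plexin bars, and SEMA4G with SEMA6B a far smaller part of the semaphorin bar under USP22 shRNA than under control shRNA.

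The 4 ephrin-A genes listed all had negative log2 ratios, beside 4738 of the 10195 genes past the filter. Of the 4, 2 were at least 2-fold lower, beside 12.2% of all genes. EFNA2 was at 3.70 FPKM under USP22 shRNA and 11.5 FPKM under control shRNA, a log2 ratio of -1.41, and its transcript is the most GC-rich of the members, at 71.1%. EFNA4 was at 4.28 FPKM under USP22 shRNA and 11.1 FPKM under control shRNA, a log2 ratio of -1.19. EFNA1, a ligand of EPHA2, had the highest ephrin level under either shRNA, at 8.27 FPKM under USP22 shRNA and 13.3 FPKM under control shRNA, a log2 ratio of -0.63. EFNA3 was at 0.950 FPKM under USP22 shRNA and 2.58 FPKM under control shRNA, a log2 ratio of -0.87. Of the genes within 1 percentage point of their GC contents, 44.4% of 18 for EFNA2 and 23.9% of 675 for EFNA4 were at least 2-fold lower. With the GC trend removed none of the 4 was past 2-fold, and their log2 ratios were between -0.64 and -0.07. EFNA4, EFNA3 and EFNA1 follow each other on chromosome 1, and another protein-coding gene, annotated across EFNA4 and EFNA3 on the same strand, shares exons with both, so reads may be split between them.

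Ligands were set against receptors by their counts, medians and sums. Of 14 ligands past the filter, 2 were higher and 4 lower, and of 11 receptors 2 were higher and 2 lower, beside 24.1% higher and 12.2% lower among all genes. With the GC trend removed 1 ligand was higher and 2 lower, and 2 receptors were higher and none lower, beside 8.45% and 8.92% of all genes. The median log2 ratio was -0.63 for ligands and -0.29 for receptors, a difference of -0.34, or -0.13 with the GC trend removed. Among the 14 members that overlap no exon of another gene the order of the medians was the opposite, at -0.30 for ligands and -0.61 for receptors, so the difference rests on which genes are counted. SEMA3B was left out of these for a microRNA gene alone. Summed levels are an unlike measure, led by the most abundant genes, and the GC trend was not removed from them. The ligands summed to 44.8 FPKM under USP22 shRNA and 98.0 FPKM under control shRNA, and the receptors to 209 FPKM and 230 FPKM.

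The receptor sum was 4.66 times the ligand sum under USP22 shRNA and 2.35 times under control shRNA. Without EPHA2, which supplies the largest part of the receptor sum, it was 2.55 times the ligand sum under USP22 shRNA and 1.42 times under control shRNA. SEMA4G and SEMA6B together account for most of the difference in the ligand sum, which was 41.6 FPKM under USP22 shRNA and 59.8 FPKM under control shRNA without them, and the receptor sum was then 5.01 and 3.85 times as large.

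**Figure D3:**
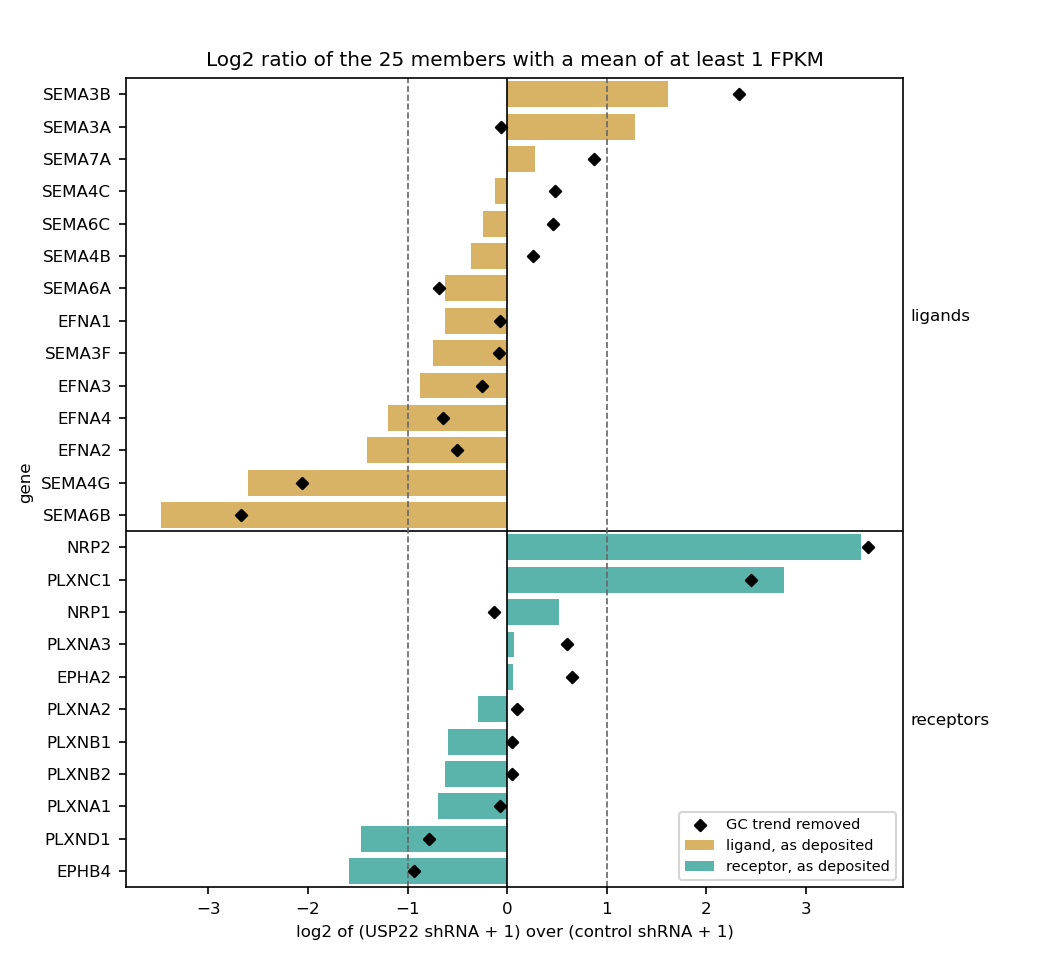
Log2 ratio, with 1 FPKM added to both values, for the 25 members past the filter, ligands above receptors, as deposited (bars) and with the GC trend removed (diamonds), with dashed lines at 2-fold. SEMA3B, NRP2, PLXNC1, SEMA4G and SEMA6B lie past 2-fold in both forms, and SEMA3A, EFNA2, EFNA4, PLXND1 and EPHB4 as deposited only.

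Of the 10 members past 2-fold, 5 were past it in the same direction with the GC trend removed. These were NRP2, PLXNC1 and SEMA3B, higher, and SEMA4G and SEMA6B, lower. Apart from SEMA6B, each of them overlaps another annotated gene, which for SEMA3B is only a microRNA gene. Across the 25 members the Spearman correlation of the log2 ratio with GC content was -0.49, given as a description since all points share the same libraries. In the tenth of all genes lowest in GC content 712 of 1014 were higher and 3 lower, and in the tenth highest 13 of 1014 were higher and 353 lower.

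**Figure D4:**
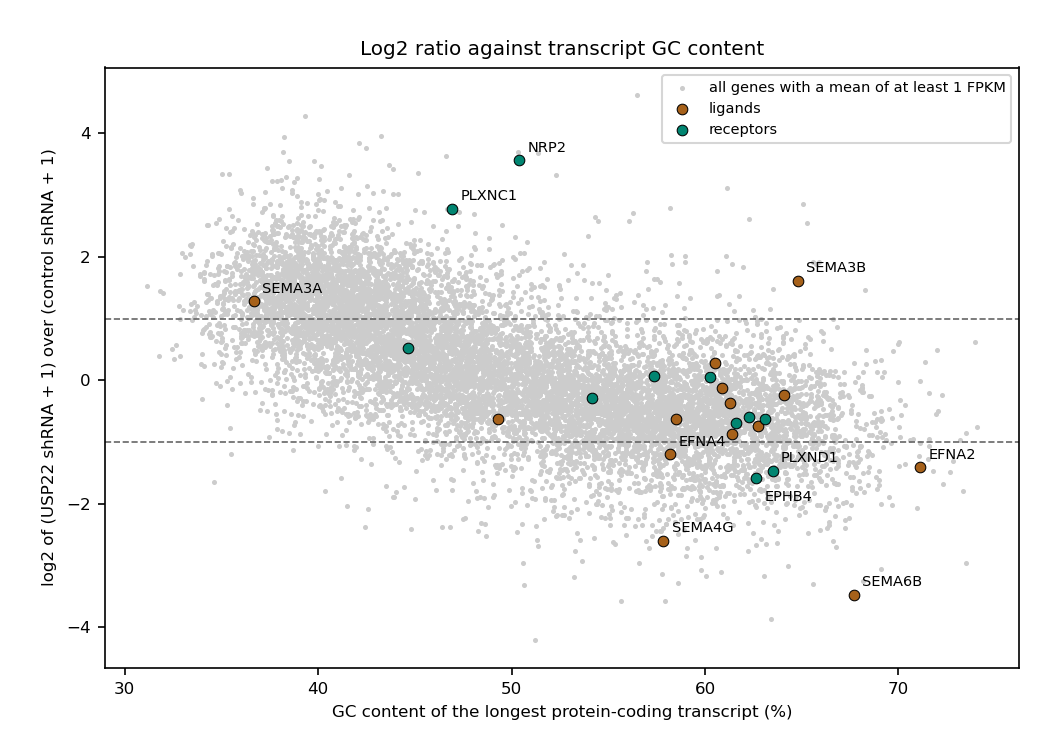
Log2 ratio of USP22 shRNA over control shRNA, with 1 FPKM added to both values, against the GC content of the longest protein-coding transcript, in percent, for 10134 genes (grey) with the ligands (brown) and receptors (green) marked and dashed lines at 2-fold. NRP2, PLXNC1 and SEMA3B lie toward the upper edge of the cloud at their GC content and SEMA4G and SEMA6B toward its lower edge. Some other genes of like GC content lie farther out, and SEMA3A at 36.7% lies well inside the cloud.

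Promoter sequence is shown for the pair of members with the highest and the pair with the lowest log2 ratios among those past 2-fold that have a RefSeq promoter entry, to set members that differ in opposite directions side by side. Each run is the 250 bases before the RefSeq start nearest the GENCODE 29 gene start, 5′ to 3′ on the gene's strand, from build GRCh38.p14. They are NRP2 at chr2:205682251-205682500 (plus strand), PLXNC1 at chr12:94148327-94148576 (plus strand), SEMA4G at chr10:100969254-100969503 (plus strand) and EPHB4 at chr7:100827524-100827773 (minus strand). Capitals mark GGGCGG on either strand, the core recognised by SP and KLF factors.
NRP2: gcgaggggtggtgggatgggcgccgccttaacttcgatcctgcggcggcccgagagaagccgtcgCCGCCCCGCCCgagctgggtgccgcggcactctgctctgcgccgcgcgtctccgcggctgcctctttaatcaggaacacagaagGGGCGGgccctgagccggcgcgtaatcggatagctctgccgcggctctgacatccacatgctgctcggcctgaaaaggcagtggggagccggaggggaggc
PLXNC1: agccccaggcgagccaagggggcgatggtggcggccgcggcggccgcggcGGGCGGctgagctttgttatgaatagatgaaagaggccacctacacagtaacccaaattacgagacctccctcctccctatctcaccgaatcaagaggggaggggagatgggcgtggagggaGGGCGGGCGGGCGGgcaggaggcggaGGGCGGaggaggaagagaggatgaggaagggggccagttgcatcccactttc
SEMA4G: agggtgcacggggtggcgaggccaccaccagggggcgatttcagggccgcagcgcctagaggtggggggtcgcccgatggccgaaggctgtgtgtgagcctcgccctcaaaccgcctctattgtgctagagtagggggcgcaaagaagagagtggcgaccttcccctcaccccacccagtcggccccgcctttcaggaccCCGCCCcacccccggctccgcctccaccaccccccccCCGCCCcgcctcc
EPHB4: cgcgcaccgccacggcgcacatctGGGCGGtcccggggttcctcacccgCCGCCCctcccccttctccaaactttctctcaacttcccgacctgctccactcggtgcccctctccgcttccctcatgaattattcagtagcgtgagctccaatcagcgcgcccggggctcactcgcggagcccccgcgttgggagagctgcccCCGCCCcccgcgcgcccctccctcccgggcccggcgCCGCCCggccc
These windows hold 3, 5, 2 and 4 such matches, some of which overlap or abut, and 70.0%, 65.2%, 71.6% and 72.8% GC. All 4 windows are above the median GC content of all RefSeq windows given next.

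Of the 28 members 24 matched a RefSeq promoter entry, and their windows had a median GC content of 71.8%, against 58.0% for the 35116 windows in the RefSeq table, which counts every start of coding and non-coding genes. GGGCGG was found in 23 of the 24, against 42.6% of all windows, and no share of windows of like GC content was taken. It was in 3 of 3 higher members, 5 of 5 lower, 12 of 13 inside 2-fold and 3 of 3 under the filter, so it did not separate them. GGAATG, the core of TEAD binding sites, was found in 2 of 24 (EPHA2 and SEMA3B), against 11.9% of all windows, and TGANTCA, the AP-1 core, in none of 24, against 6.57%. Both strands were searched. A match describes the letters in the window and is not evidence of binding, and the start used in Huh7 cells was not measured.

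Genes around these receptors were described from lists written from general knowledge, beside the same 24.1% higher and 12.2% lower among all genes. Of 29 plexin and neuropilin effectors past the filter, 4 were higher and 2 lower, with a median log2 ratio of 0.04. RND3 was at 23.5 FPKM under USP22 shRNA and 3.27 FPKM under control shRNA. RRAS, a small GTPase on which plexins act, was at 20.5 and 6.71 FPKM, RRAS2 at 17.5 and 5.83 FPKM, and the kinase GSK3B at 13.5 and 4.65 FPKM in the USP22 shRNA and control libraries. The lower genes were SH3BP1, a GTPase-activating protein, at 2.32 FPKM under USP22 shRNA and 14.8 FPKM under control shRNA, and LIMK1, a kinase of the actin regulator cofilin, at 1.77 and 9.29 FPKM. With the GC trend removed 4 were higher and 3 lower, beside 8.45% and 8.92% of all genes. The higher ones were RRAS (2.16), RND1 (1.42), MICAL2 (1.27) and RND3 (1.24), and the lower ones SH3BP1 (-1.55), RAP1B (-1.35) and LIMK1 (-1.29), whereas RRAS2 (0.08) and GSK3B (0.35) were inside 2-fold.

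Of 21 Eph effectors and sheddases past the filter, 7 were higher and 3 lower, with a median log2 ratio of 0.32. Once the GC trend was taken out, 3 were higher (YES1, ITSN1 and PTPN11) and 1 lower (LYN), beside 8.45% and 8.92% of all genes, with a median of 0.09. The SRC family kinase YES1 was at 23.7 FPKM under USP22 shRNA and 3.54 FPKM under control shRNA, and the phosphatase PTPN11 at 29.3 and 6.58 FPKM. ADAM10, a protease that cleaves ephrin-A ligands, was at 6.88 FPKM under USP22 shRNA and 1.42 FPKM under control shRNA, and the adaptor NCK1 at 4.60 and 0.911 FPKM. Without the GC trend, YES1 had a log2 ratio of 1.12, ADAM10 of 0.41 and NCK1 of 0.16. The lower genes were the kinase ABL1, at 8.14 FPKM under USP22 shRNA and 19.6 FPKM under control shRNA, the adaptor SHC1, at 20.0 and 43.1 FPKM, and the exchange factor VAV2, at 5.72 and 13.0 FPKM.

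Of 9 co-receptors and shared ligands past the filter, 3 were higher and 1 lower, with a median of 0.15, or 0.56 with the GC trend removed. VEGFD, a growth factor of lymphatic vessels, was at 6.12 FPKM under USP22 shRNA and 0.328 FPKM under control shRNA, and its log2 ratio with the GC trend removed was 1.57. At that control value VEGFD could pass the filter only with a USP22 shRNA value that the size rule calls higher. ITGB1, the integrin subunit through which SEMA7A also acts, was at 69.8 FPKM under USP22 shRNA and 15.9 FPKM under control shRNA, and the adhesion molecule NRCAM at 9.49 and 2.07 FPKM. ERBB3 was lower, at 5.77 FPKM under USP22 shRNA and 14.1 FPKM under control shRNA. With the GC trend removed ITGB1 (0.86), NRCAM (0.74) and ERBB3 (-0.94) were inside 2-fold. VEGFA, a ligand of NRP1, was at 5.70 FPKM under USP22 shRNA and 6.92 FPKM under control shRNA.

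Of 9 genes of other guidance families past the filter, 3 were higher and 1 lower, with a median of 0.73, or 0.82 with the GC trend removed. The netrin NTN4 was at 2.92 FPKM under USP22 shRNA and 0.0614 FPKM under control shRNA. The SLIT receptor ROBO1 was at 9.93 FPKM under USP22 shRNA and 3.47 FPKM under control shRNA, and FLRT3, a membrane protein that binds UNC5 receptors, at 13.3 and 2.76 FPKM. The netrin receptor UNC5B was lower, at 2.13 FPKM under USP22 shRNA and 6.69 FPKM under control shRNA. With the GC trend removed NTN4 was at 1.67, ROBO1 at 0.97, FLRT3 at 0.66 and UNC5B at -0.70. The 3 genes of the list then past 2-fold were NTN4, the SLIT receptor family member ROBO3 (1.47) and the netrin NTN1 (1.38), all higher, beside 8.45% of all genes. At its control value NTN4 could pass the filter only with a USP22 shRNA value that the size rule calls higher. SRGAP2 has no GC value and was not counted with the GC trend removed.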

How the data were processed

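RNA-seq of Huh7 cells was compared between 1 library with USP22 shRNA and 1 with control shRNA, grouped by their titles. The deposited tables pair Ensembl identifiers and symbols with 1 value per gene and name no unit, and the values were read as FPKM. HISAT2 2.0.4 and StringTie 1.3.0 stand in the submitters' processing notes beside the build GRCh37, with no role given for each. The annotation, the choice of the 11976 genes and any use of strand are not given in the sources used here. Values multiplied by transcript length showed no steps of whole reads (strength at most 0.148 on a scale that reaches 1), so the depth is unknown, no count model was used, and no counting interval can be given.

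Log2 ratios used a pseudocount of 1, which understates differences of low genes, and a mean of at least 1 FPKM. GC content and length came from the longest protein-coding GENCODE 29 transcript, and the GC trend was removed with a lowess curve over a span of 30% (statsmodels 0.14.6). Removal of the GC trend and TMM scaling were tested on simulated data that held no low genes and had large differences. Genes near 1 FPKM and differences near 2-fold were not covered by it. Exon overlaps came from GENCODE 29 (GRCh38), promoters from RefSeq (GRCh38.p14), and neither was mixed with coordinates of the files. Of 7 symbols on 2 rows, none is a member, and lists took the row with the higher mean. Named were USP22, every member, and up to 4 genes past 2-fold at each end of a list, plus VEGFA, RND1, MICAL2, RAP1B, ITSN1, LYN, ROBO3, NTN1, some markers and genes overlapping a member, chosen after their values were seen. Members and lists were chosen with earlier results of these data known.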

Additional observations from a re-analysis of the deposited data

How the results depend on the processing

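Depth and replicate error are unknown, so no value here can be set against counting or biological error, and differences of genes near 1 FPKM are the least certain. The 4 higher and 6 lower members and the ligand minus receptor difference of -0.34 came from the deposited values. With the GC trend removed 2 members were lower and the difference was -0.13, and with a curve over a 60% span, added after seeing the data, 2 and -0.21. A pseudocount of 5 gave 2 higher and a difference of -0.15, a mean of at least 5 FPKM gave 2 higher and -0.71, and a 1.5-fold rule gave 13 lower. Among members that overlap no other gene, also added after seeing the data, 1 was higher and 3 lower, and the difference was 0.31, the opposite sign. This alternative has fewer genes (14). No share over all genes was taken with the 60% span, the 1.5-fold rule, or a changed pseudocount, filter or scaling. None was taken among genes that overlap no other gene. Whether the 13 lower members at 1.5-fold exceed the share among all genes, or among GC-rich genes, was therefore not tested. SEMA3A was the single member past 2-fold that changed sign, at -0.059 with the GC trend removed, and EFNA2, EFNA4, EPHB4 and PLXND1 were then inside 2-fold. A pseudocount of 5 left SEMA3A, SEMA3B, EFNA2 and EFNA4 inside 2-fold, and one of 0.1 put EFNA3 and SEMA3F past it. Median centring, TMM scaling (SEMA7A then under the filter), rescaling without mitochondrial genes and no filter changed no call of a single member that passed, and their counts stayed at 4 higher and 6 lower. No paired analysis was possible because each group has 1 library.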
